A study of Arabidopsis thaliana with 18 samples.

Results

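The cytosolic small ribosomal subunit of Arabidopsis thaliana was followed through 55 of its protein genes, each measured by 1 probe set, among 27827 probe sets in all. The genes were given as a list of 40S ribosomal protein loci, a rule that uses no measured value, and all 55 loci were on the array with no probe set a copy of another. Reference names were found for 13 of them, among them P40, RPSAb, RPS5A, RPS5B, RPS6, EMB3010, RPS10B, EMB1080, RPS13A, RPS15, PFL and RPS18C, and the others are given by locus. Probe set names add _at to the locus, as in AT5G41520_at for RPS10B, AT3G11940_at for RPS5A, AT4G31700_at for RPS6, AT1G22780_at for PFL, AT4G30800_at and AT3G04920_at. Seeds came from the abci20 mutant, named for the ABC transporter family gene ABCI20, and from Col-0, the wild-type accession in which the mutant is held. The labels call the mutant only abci20, so the allele, the kind of mutation and the number of independent lines are not stated. RNA came from dry seeds at harvest, as polysomal RNA (messages on several ribosomes), monosomal RNA (messages on 1 ribosome) and total RNA. Each of the 6 groups had 3 arrays, each from a bulk of 8 plants. The p-values measure the spread between arrays of a group, pooled over the 6 groups. The labels do not say outright whether 1 bulk gave all 3 fractions, and the reported fit takes the arrays as independent.

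The small subunit is the part of the ribosome that binds the message, scans for the start codon and checks the match of codon and tRNA. In Arabidopsis each of its proteins is encoded by several near-identical paralogs, and single mutants of some, such as pointed first leaf (PFL, a gene for S18, and RPS13A, a gene for S13) and the minute-like RPS5A mutant, have narrow leaves or arrested embryos. A dry seed holds stored messages, part of them on ribosomes, and protein synthesis restarts from these at imbibition. Seeds were profiled in bulk, so a change in the proportion of a cell type and a change in the RNA per cell cannot be told apart.

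Signals are RMA log2 values, in which 1 unit is a doubling. ABCI20 itself lay between 1.10 and 2.41 in the 9 abci20 arrays and between 3.80 and 5.09 in the 9 Col-0 arrays, so no array went against its label. Array abci20 total replicate 1 was set apart from its group, with correlations across probe sets of 0.893 and 0.915 against 0.959 for the remaining pair, while replicate pairs of the other 5 groups lay between 0.957 and 0.987. For abci20 against Col-0 in total RNA, the count of called small subunit genes and their median difference are therefore also given without this array. The same holds for polysomal and for monosomal against total RNA of abci20, and for some single genes. Most other counts, shares and medians that use this array are given only with it. Among these are counts by unadjusted p or by non-overlap, fraction orders, shares of brighter genes and medians of the other gene lists. The 7 dry seed markers (storage proteins, an oleosin and late embryogenesis proteins) lay above 98.8% of the probe sets in each array, while of the 3 leaf markers CAB1 and CAB3 lay above no more than 59.5% and RBCS1A above 83.4% to 89.2%. Between genotypes the fitted differences of the 7 dry seed markers were below 0 for 7 in total, 7 in polysomal and 6 in monosomal RNA, with medians of -0.20, -0.14 and -0.11, and 0 of them were called in limma, by the adjusted or the unadjusted p. All abci20 arrays lay below all Col-0 arrays for 4, 1 and 2 of these markers in the same order, where 10%, 11% and 10.3% of all probe sets did so. The part of these markers in the differences of the small subunit genes was not tested. The 3 leaf markers had median differences of 0.43, 0.21 and 0.09, with 0 called. Members of a paralog pair can share sequence, and how far their probes cross-hybridize was not examined.

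As a group the small subunit genes stood high on the arrays and stood higher in abci20 seeds. The median over the 55 genes was 7.63 ± 0.133 in abci20 and 7.15 ± 0.131 in Col-0 polysomal RNA, 8.02 ± 0.173 in abci20 and 7.33 ± 0.132 in Col-0 monosomal RNA, and 7.24 ± 0.295 in abci20 and 6.73 ± 0.229 in Col-0 total RNA (mean of array medians, SD, n = 3). In no fraction did the abci20 and Col-0 medians overlap. In total RNA the abci20 arrays had medians of 7.29, 7.51 and 6.93, against 6.46, 6.83 and 6.89 in Col-0, which left the narrowest gap of the 3 fractions. These medians lay above 89.3% to 94.7% of all probe sets in abci20 arrays and above 84.2% to 90.8% in Col-0 arrays. Of the 6 group means of a gene, the lowest was in Col-0 total RNA for 44 of the 55 genes, and the highest was in abci20 monosomal RNA for 34 and in abci20 polysomal RNA for 16. This order over 6 groups was not counted for other probe sets. Among the 3 fractions of Col-0, total RNA was lowest for 32.6% of all probe sets and 38.2% of the brighter ones. Among those of abci20, monosomal RNA was highest for 35.5% and 29.2%.

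**Figure D1:**
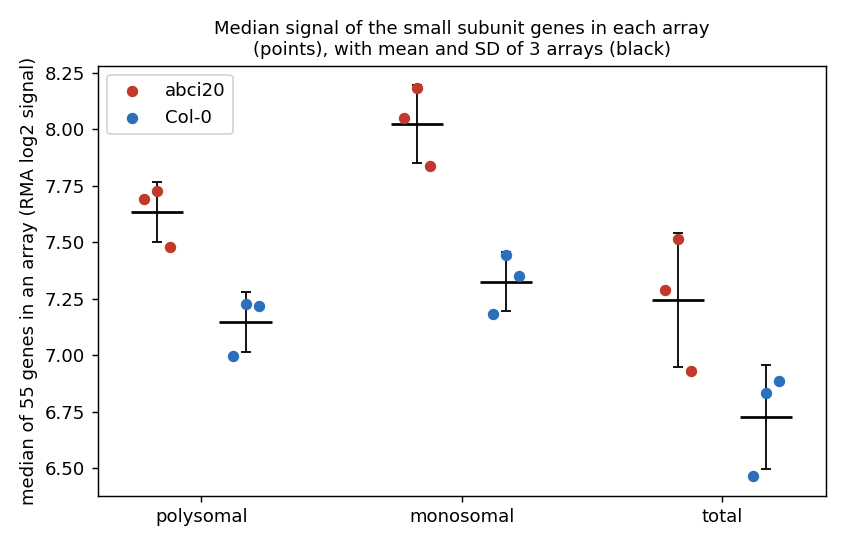
Each point is the median RMA log2 signal (y axis) of the 55 small subunit genes in 1 array, by RNA fraction (x axis) and genotype, and black bars give the mean and SD of 3 arrays. In each fraction the 3 abci20 arrays lie above the 3 Col-0 arrays, and abci20 monosomal RNA is highest at 7.84 to 8.18.

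The first comparison asked which small subunit messages differed between abci20 and Col-0 in the whole message pool. In total RNA 4 of the 55 genes rose and 0 fell at an adjusted p under 0.05, where 1.11% of all probe sets rose and 2.24% fell. Among the brighter 13913 probe sets, 3 of 51 small subunit genes rose (5.88%), beside 1.73% of all brighter ones. The 4 genes were RPS10B, AT4G30800, AT2G09990 and AT3G02080. The fitted abci20 minus Col-0 difference was above 0 for 49 genes, with a median of 0.45 log2 over the 55, against 0.01 over all probe sets and -0.08 over the brighter ones. At an unadjusted p under 0.05, 22 were higher and 1 lower, beside 7.96% and 9.5% of all probe sets. The 3 abci20 arrays all lay above the 3 Col-0 arrays for 20 genes and all below for 1, where 6.76% and 10% of all probe sets did so.

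RPS10B encodes S10, a protein that in human cells is marked with ubiquitin when ribosomes stall. Its signals in total RNA were 7.76, 7.51 and 7.52 in abci20 and 6.64, 6.92 and 6.59 in Col-0. The groups were well apart, and RPS10B rose by 0.88 log2 (SE 0.202, 1.84-fold, limma adjusted p = 0.0232). AT3G02080 had 8.14, 8.35 and 7.75 in abci20 against 7.29, 7.38 and 7.18 in Col-0. It rose by 0.80 (SE 0.198, limma adjusted p = 0.0344), again with no overlap between the genotypes. AT2G09990 had 5.52, 6.0 and 6.14 in abci20 against 5.11, 4.32 and 5.15 in Col-0, and rose by 1.03 (SE 0.255, limma adjusted p = 0.0342). The genotypes did not overlap here either. AT4G30800 had the highest fitted difference, with 3.18, 3.08 and 3.66 in abci20 against 2.30, 1.81 and 2.33 in Col-0, and rose by 1.16 (SE 0.280, 2.23-fold, limma adjusted p = 0.0299). It is a dim probe set, at percentiles 14.5 to 56.6 of the arrays, and the deposited values carry no detection call.

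Below the threshold, AT3G11510 differed by 1.05 (limma adjusted p = 0.0613), with 7.67, 7.96 and 6.93 in abci20 against 5.72, 6.99 and 6.68 in Col-0. AT3G57490 differed by 1.03 (limma adjusted p = 0.123), with 5.01, 5.70 and 4.93 in abci20 against 3.54, 4.16 and 4.84 in Col-0. The genotypes overlapped in AT3G11510 and were narrowly apart in AT3G57490. At the other end stood AT1G48830, which had 8.92, 9.77 and 9.30 in abci20 against 9.80, 9.79 and 9.94 in Col-0. All its abci20 arrays lay below the Col-0 arrays, the difference being -0.52 (limma adjusted p = 0.179). The other low differences were -0.13 for AT5G27700, -0.13 for AT5G09510 and -0.11 for AT3G47370.

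Without abci20 total replicate 1, 6 genes were called higher and the median was 0.42, while the share of all probe sets called higher became 4.65%. RPS10B then differed by 0.80 (limma adjusted p = 0.0296), AT3G02080 by 0.77 (limma adjusted p = 0.0356), AT2G09990 by 1.21 (limma adjusted p = 0.0101) and AT4G30800 by 1.22 (limma adjusted p = 0.0224), so each remained past the threshold. The count of calls moved with single arrays: 0 genes were called without Col-0 total replicate 1 or 3, 2 without replicate 2, and 2 and 3 without abci20 total replicates 2 and 3. Over these fits the share of all probe sets called ran from 1.28% to 9.49%. AT3G11510 differed by 0.98, AT3G57490 by 1.13 and AT1G48830 by -0.31 without abci20 total replicate 1, again short of the threshold. With each array centred on its own median, which moved the median of all probe sets to -0.13, or with the 6 compared arrays fitted alone, 0 of the 55 genes passed. These fits called 3.92% and 0% of all probe sets.

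**Figure D2:**
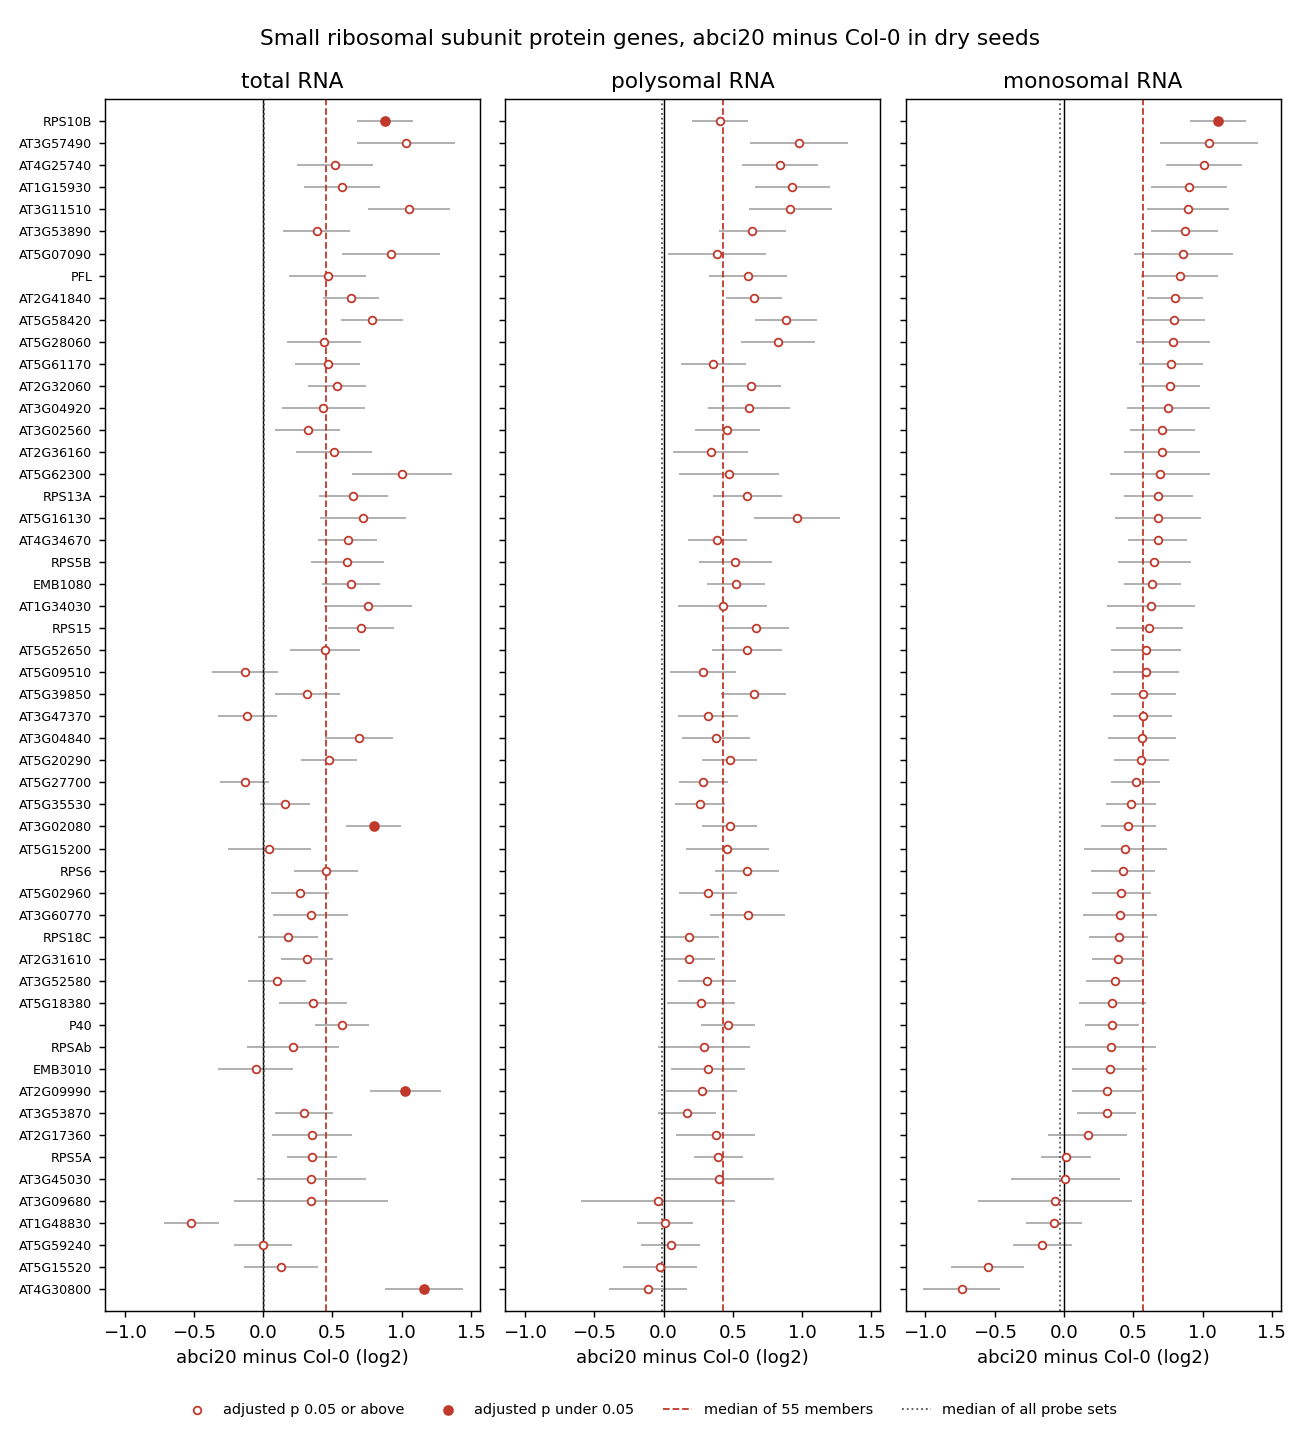
Fitted abci20 minus Col-0 difference in log2 (x axis, bars 1 SE) of 54 of the 55 small subunit genes (y axis, ordered by the monosomal difference) in total, polysomal and monosomal RNA, with filled points at an adjusted p under 0.05. Most genes lie right of 0 in all 3 panels, the medians being 0.45, 0.43 and 0.57, and AT4G30800 has the highest total difference and the lowest monosomal one.

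The next comparison asked the same of the messages on several ribosomes. In polysomal RNA 0 of the 55 genes passed limma's adjusted threshold in either direction, where 0.234% of all probe sets rose and 0.208% fell. At an unadjusted p under 0.05, 23 were higher and 0 lower, beside 4.08% and 3.87% of all probe sets. The difference was above 0 for 52 genes, and the median was 0.43 log2 against -0.01 over all probe sets and 0.00 over the brighter ones. All 3 abci20 arrays lay above all 3 Col-0 arrays for 36 genes and below for 0, where 10.3% and 11% of all probe sets were so separated.

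AT3G57490 had the highest polysomal difference, with 6.16, 5.90 and 5.96 in abci20 against 4.90, 5.14 and 5.04 in Col-0. The difference was 0.98 (SE 0.353, limma adjusted p = 0.373), although the arrays of the genotypes were tight and well apart in this fraction. The standard error is shared over the 6 groups and takes in the wide spread of this gene in Col-0 total and monosomal RNA. AT5G16130 differed by 0.97, AT1G15930 by 0.93 and AT3G11510 by 0.92, each short of the threshold, and none of these overlapped between genotypes. The lowest differences were -0.11 for AT4G30800, -0.04 for AT3G09680, -0.03 for AT5G15520 and 0.01 for AT1G48830. With only the 6 polysomal arrays in the fit, 6 genes were called higher, beside 0.866% of all probe sets, and with array weights 28 were, beside 5.04%.

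The messages on 1 ribosome were compared likewise. In monosomal RNA 1 of the 55 genes rose and 0 fell, against 1.09% and 0.744% of all probe sets, and with the replicate block 3 rose, beside 1.18%. At an unadjusted p under 0.05, 32 were higher and 1 lower, beside 7.59% and 7.28% of all probe sets. The difference was above 0 for 50 genes, and the median was 0.57 log2 against -0.03 over all probe sets and 0.05 over the brighter ones. The genotypes did not overlap for 35 genes that were higher and 2 that were lower in abci20, where 9.52% and 10.3% of all probe sets were so separated.

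RPS10B was the gene called. Its monosomal signals were 8.12, 8.53 and 7.90 in abci20 against 6.93, 7.19 and 7.09 in Col-0. The lowest abci20 array thus lay clear of the highest Col-0 array, and RPS10B rose by 1.11 (SE 0.202, 2.16-fold, limma adjusted p = 0.0105). In polysomal RNA it had 7.57, 7.42 and 7.13 in abci20 against 6.83, 7.10 and 6.97 in Col-0, a difference of 0.41 (limma adjusted p = 0.679) with the genotypes just apart. The monosomal call was lost without abci20 monosomal replicate 2 or Col-0 monosomal replicate 1, where the adjusted p of limma reached 0.0708, and 0 genes were called with the monosomal arrays fitted alone. Leaving out abci20 monosomal replicate 3 gave 4 genes, and leaving out Col-0 monosomal replicate 2 or 3 gave 2. Over the arrays left out the share of all probe sets called ran from 0.359% to 1.73%. With the monosomal arrays alone it was 0.0898%.

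Other genes with a high monosomal difference stayed short of the threshold. AT4G25740 had 7.52, 7.79 and 7.44 in abci20 against 6.03, 6.86 and 6.84 in Col-0, a difference of 1.01 (limma adjusted p = 0.0683). The genotypes did not overlap for this gene. AT3G57490 differed by 1.05 (limma adjusted p = 0.148), with 6.5, 6.64 and 6.24 in abci20 against 4.78, 5.15 and 6.31 in Col-0, where Col-0 replicate 3 reached into the abci20 range.

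AT4G30800 turned its sign here. Its monosomal signals were 2.35, 2.39 and 2.28 in abci20 against 3.69, 2.96 and 2.59 in Col-0, and all abci20 arrays lay below the Col-0 arrays. The difference of -0.74 did not pass (limma adjusted p = 0.207), whereas the same gene had risen in abci20 total RNA. AT5G15520 was also separated downward, with 4.45, 3.90 and 4.05 in abci20 against 4.77, 4.61 and 4.68 in Col-0 and a difference of -0.55 (limma adjusted p = 0.346). AT5G59240 at -0.16 and AT1G48830 at -0.07 completed the low end.

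**Figure D3:**
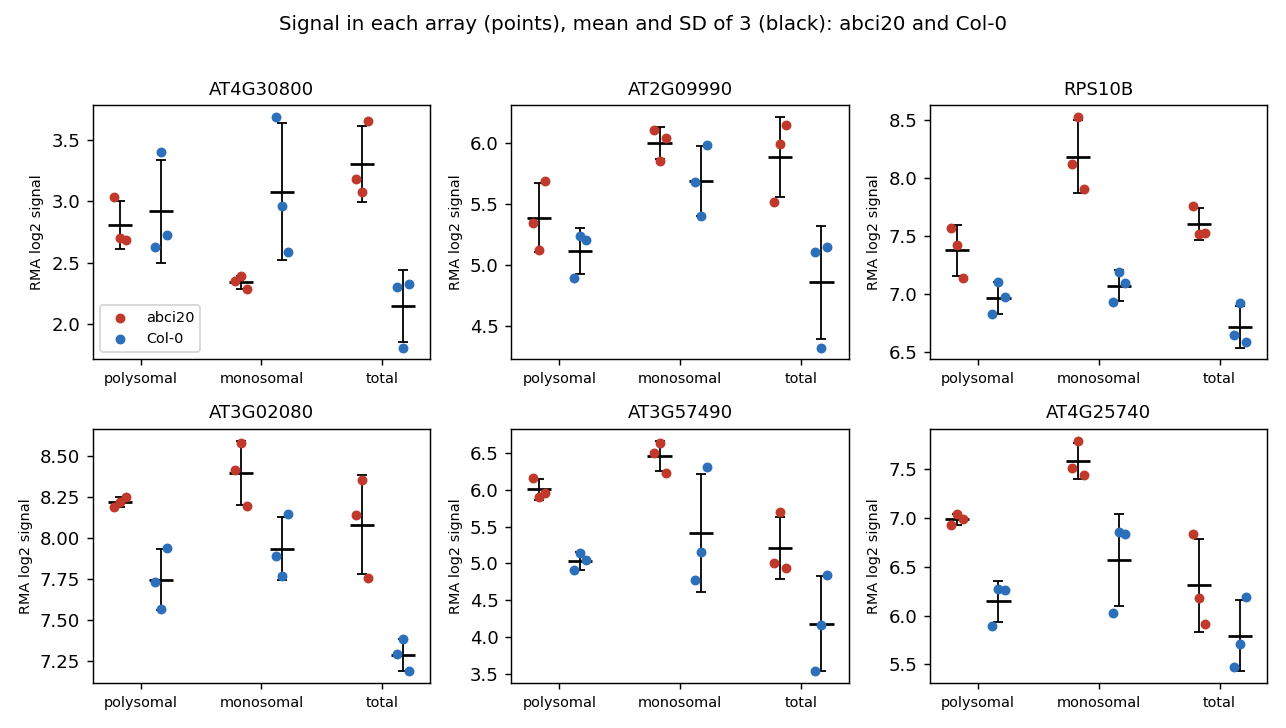
RMA log2 signal (y axis) in each array for 6 small subunit genes by RNA fraction (x axis) and genotype, with the mean and SD of 3 arrays in black. RPS10B and AT3G02080 lie higher in abci20 in each fraction, while AT4G30800 is higher in abci20 total RNA (3.08 to 3.66) and lower in abci20 monosomal RNA (2.28 to 2.39).

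Genes with described mutants or regulation mostly shared the direction of the group, without passing the test. P40, a gene for SA, the small subunit protein akin to the animal laminin receptor, differed between abci20 and Col-0 by 0.57 in total, 0.46 in polysomal and 0.35 in monosomal RNA. Its paralog RPSAb, a probe set near the middle of the arrays at percentiles 43.3 to 65.2, differed by 0.22, 0.29 and 0.34. RPS5A and RPS5B encode S5, which lies by the path of the message out of the small subunit. RPS5A differed by 0.35, 0.40 and 0.02 in total, polysomal and monosomal RNA. In monosomal RNA its arrays were mixed, with 8.59, 8.46 and 8.46 in abci20 against 8.38, 8.47 and 8.60 in Col-0. RPS5B differed by 0.61, 0.52 and 0.65 in the same order, and its monosomal signals of 6.64, 6.75 and 6.0 in abci20 all lay above the 5.86, 5.75 and 5.83 in Col-0.

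S6 is the small subunit protein that S6 kinase phosphorylates downstream of the growth regulator TOR. Its gene RPS6 differed by 0.45 in total, 0.60 in polysomal and 0.43 in monosomal RNA, and its gene EMB3010 by -0.05, 0.32 and 0.33. EMB3010 in total RNA was low in the array that stood apart, with 7.75, 9.14 and 8.60 in abci20 against 8.31, 8.48 and 8.86 in Col-0. RPS13A differed by 0.65, 0.60 and 0.68 and RPS15 by 0.71, 0.66 and 0.62. For S18, PFL differed by 0.47, 0.61 and 0.84 and RPS18C by 0.18, 0.19 and 0.39. EMB1080, named for its embryo-defective mutant, differed by 0.64, 0.52 and 0.64. All adjusted p of these genes in the genotype comparisons were above 0.05 in limma. Without abci20 total replicate 1, the total RNA differences were 0.42 for P40, -0.0059 for RPSAb, 0.41 for RPS5A, 0.27 for RPS5B, 0.42 for RPS6 and 0.32 for EMB3010. They were 0.44 for RPS13A, 0.70 for RPS15, 0.70 for PFL, 0.20 for RPS18C and 0.50 for EMB1080. RPSAb and EMB3010 thus changed sign with this array, and none passed without it.

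Between RNA fractions the values are relative, and a gene higher in polysomal than in total RNA held a larger share of the polysomal signal. The median over all probe sets of an array lay between 3.16 and 3.69, with 3.35, 3.69 and 3.60 in abci20 total RNA and 3.43, 3.47 and 3.32 in Col-0 total RNA, so the deposited arrays did not share 1 distribution. The part of these scale differences in the contrasts with total RNA was not tested beyond the rescaled and centred fits. In polysomal against total RNA 12 of the 55 genes rose and 1 fell in abci20, where 11.9% and 10.2% of all probe sets did. In Col-0 4 rose and 0 fell, where 4.06% and 3.07% of all probe sets did. Among brighter probe sets, 23.5% of the 51 small subunit genes and 22.8% of all rose in abci20, and 7.84% and 7.81% did in Col-0, so these counts were near the background. The median polysomal minus total difference was 0.38 in abci20 and 0.39 in Col-0, against 0.02 and 0.01 over all probe sets. The brighter probe sets, which the small subunit genes mostly belong to, had a median of 0.38 in abci20 and 0.24 in Col-0. The total arrays of each genotype enter both its polysomal and its monosomal contrast, so these 2 share samples.

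AT5G58420 had the highest polysomal minus total difference in each genotype. Its signals in abci20 were 9.01, 8.82 and 8.76 in polysomal against 7.18, 7.68 and 7.47 in total RNA. In Col-0 they were 7.97, 7.77 and 8.19 in polysomal against 6.44, 6.93 and 6.61 in total RNA. The fractions did not overlap in either genotype, and AT5G58420 rose by 1.42 in abci20 (SE 0.222, 2.67-fold, limma adjusted p = 0.000901) and by 1.32 in Col-0 (2.50-fold, limma adjusted p = 0.00469). Both calls held with each compared array left out in turn.

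RPS5A was also higher on polysomes in each genotype. It had 8.60, 8.45 and 8.60 in polysomal against 7.76, 8.06 and 7.79 in total RNA of abci20, and 8.11, 8.25 and 8.10 against 7.38, 7.37 and 7.80 in Col-0. It rose by 0.68 in abci20 (limma adjusted p = 0.0142) and by 0.64 in Col-0 (limma adjusted p = 0.0414). AT3G04840 rose by 0.70 in abci20 (limma adjusted p = 0.0485) and 1.02 in Col-0, but in abci20 its adjusted p was 0.0503 with the replicate block. AT4G34670 rose by 0.64 in abci20 and 0.86 in Col-0. With 1 array left out in turn, the Col-0 calls of RPS5A and AT4G34670 were lost in 5 of 6 fits and that of AT3G04840 in 4. In abci20 RPS5A lost its call in 1 of 6 fits, and AT3G04840 and AT4G34670 in 5 each. The remaining genes that rose in abci20 were AT5G09510 (1.07), AT5G27700 (0.97), AT3G60770 (0.82), EMB3010 (0.81), RPS5B (0.79), AT5G39850 (0.73), AT5G35530 (0.70) and AT5G02960 (0.63). In Col-0 these 8 differed by 0.65, 0.55, 0.56, 0.44, 0.88, 0.39, 0.60 and 0.57 in the same order, with adjusted p in limma of 0.0525 and above. AT3G60770, EMB3010, RPS5B and AT5G02960 lost the abci20 call in 5 of 6 fits with 1 array left out. AT5G39850 lost it in 4 and AT5G35530 in 1, while AT5G09510 and AT5G27700 kept it in all 6.

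AT3G09680 was the 1 gene that fell. It had 1.38, 1.58 and 2.04 in polysomal against 2.0, 4.45 and 4.90 in total RNA of abci20, and 1.65, 1.81 and 1.67 against 3.61, 4.02 and 2.67 in Col-0. Its polysomal signals were among the dimmest of the 55 genes, and total replicate 1 of abci20 was the exception among the higher total values. The fitted change was -2.11 in abci20 (SE 0.557, limma adjusted p = 0.0141) and -1.73 in Col-0 (limma adjusted p = 0.0679). The abci20 call was lost in 3 of 6 fits with 1 array left out (limma adjusted p up to 0.0754), and the smallest of these changes was -1.55. Quantile normalization and the compared groups alone also ended this call. Without abci20 total replicate 1 the change was -3.00 (limma adjusted p = 7.27e-05) in abci20.

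Without that array, 13 genes rose and 1 fell in polysomal against total RNA of abci20, with a median of 0.43, beside 17.9% and 15.1% of all probe sets. The counts shared 9 genes, of which AT3G04840 then differed by 0.99 (limma adjusted p = 0.00364) and RPS5B by 1.12 (limma adjusted p = 0.00174). AT5G27700 then had a limma adjusted p of 0.00117. AT5G58420 differed by 1.29, AT5G09510 by 0.87, AT5G39850 by 0.79, AT5G35530 by 0.64 and RPS5A by 0.62. EMB3010 (0.44, limma adjusted p = 0.139), AT5G02960 (0.43), AT3G60770 (0.74) and AT4G34670 (0.58) then lost the call. The count of calls in abci20 was 3 without polysomal replicate 1, 6 and 7 without polysomal replicates 2 and 3, 5 without total replicate 3 and 13 without total replicate 2. In Col-0 it was 1 without any of the polysomal replicates or without total replicate 1, 2 without total replicate 2 and 5 without total replicate 3. Over the arrays left out, the share of all probe sets called ran from 11.1% to 32.9% in abci20 and from 1.53% to 6.54% in Col-0. The size of these contrasts moved with the scaling: quantile normalization left 2 calls in abci20 and 1 in Col-0, beside 9.25% and 1.86% of all probe sets, while centring each array on its median raised the median of all probe sets to 0.34 in abci20 and 0.22 in Col-0 and gave 28 higher and 1 lower in abci20 and 12 higher in Col-0, beside 24.5%, 6.35% and 9.09%.

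**Figure D4:**
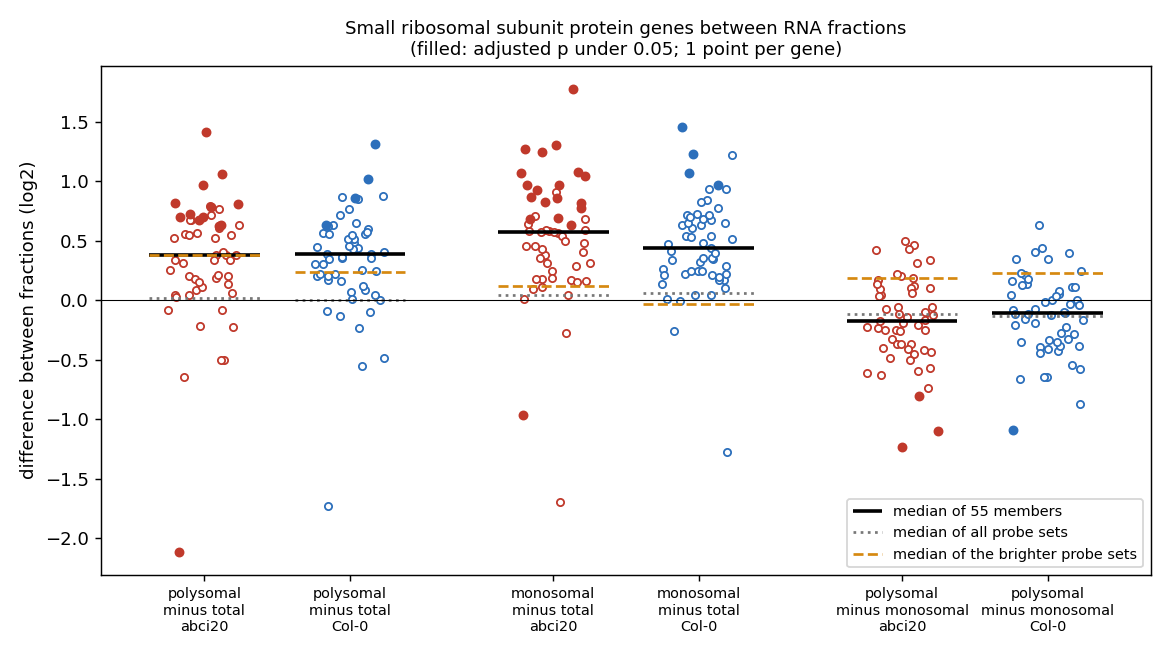
Difference between RNA fractions in log2 (y axis) for each of the 55 small subunit genes (1 point each, filled at an adjusted p under 0.05) by contrast and genotype (x axis), with medians of these genes, of all probe sets and of the brighter 13913 as lines. The medians of the small subunit genes lie at 0.57 in abci20 and 0.44 in Col-0 for monosomal minus total RNA, above the brighter probe sets at 0.12 and -0.03.

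Messages on 1 ribosome were set against the whole pool in the same way. In abci20 18 of the 55 rose and 1 fell, where 8.15% and 6.58% of all probe sets did. In Col-0 4 rose and 0 fell, where 3.2% and 3.45% did, and with the replicate block 7 rose, beside 3.46%. Among brighter probe sets, 35.3% of the 51 small subunit genes and 14.1% of all rose in abci20, and 7.84% and 4.72% did in Col-0. The median monosomal minus total difference was 0.57 in abci20 and 0.44 in Col-0, against 0.05 and 0.06 over all probe sets and 0.12 and -0.03 over the brighter ones. By group means, monosomal RNA was the highest of the 3 fractions for 36 genes in abci20 and 31 in Col-0 (65.5% and 56.4%), where 29.2% and 25.6% of the brighter probe sets had it highest. Total RNA was the lowest for 46 genes in abci20 and 48 in Col-0 (83.6% and 87.3%), against 50.1% and 38.2% of the brighter probe sets.

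AT3G04920 had the highest monosomal minus total difference in each genotype. In abci20 it had 8.45, 8.66 and 8.30 in monosomal against 6.72, 7.38 and 5.97 in total RNA. In Col-0 it had 7.54, 7.90 and 7.71 in monosomal against 6.46, 6.15 and 6.15 in total RNA. It rose by 1.78 in abci20 (SE 0.296, 3.43-fold, limma adjusted p = 0.000947) and by 1.46 in Col-0 (2.75-fold, limma adjusted p = 0.00753), with no overlap and with each single array left out in turn. AT5G58420 rose by 1.08 in abci20 and 1.07 in Col-0, and AT3G57490 by 1.25 and 1.23. With 1 array left out in turn, AT3G57490 lost its abci20 call in 3 of 6 fits (limma adjusted p up to 0.0985). Its Col-0 call was lost in 4 of 6 (limma adjusted p up to 0.181), and its Col-0 fractions overlapped. RPS5A rose by 0.63 in abci20 and 0.97 in Col-0.

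PFL rose by 1.30 in abci20 (limma adjusted p = 0.00558), with 8.67, 8.82 and 8.07 in monosomal against 6.75, 8.04 and 6.87 in total RNA. In Col-0 it had 7.62, 7.74 and 7.70 in monosomal against 6.80, 6.83 and 6.62 in total RNA, a difference of 0.94 (limma adjusted p = 0.0532). In both genotypes the fractions were apart, narrowly so in abci20. Further genes that rose in abci20 were AT4G25740 (1.27), AT5G27700 (1.07), AT5G28060 (1.05), AT5G39850 (0.97), AT3G47370 (0.97), AT5G09510 (0.93), AT2G36160 (0.87) and AT5G35530 (0.86). Their Col-0 differences, in the same order, were 0.78, 0.42, 0.70, 0.72, 0.29, 0.21, 0.67 and 0.54, none past the threshold. AT2G36160 lost its abci20 call in 4 of 6 fits with 1 array left out, AT5G28060 in 2, and AT5G39850 and AT5G09510 in 1 each.

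AT4G30800 was the gene that fell in abci20, with 2.35, 2.39 and 2.28 in monosomal against 3.18, 3.08 and 3.66 in total RNA. The change was -0.97 (SE 0.280, limma adjusted p = 0.0284). This abci20 call of AT4G30800 was lost in 4 of 6 fits with 1 array left out (limma adjusted p up to 0.123). It was also lost with quantile normalization, with centred arrays and with the compared groups alone. In Col-0 its arrays ran the other way, with 3.69, 2.96 and 2.59 in monosomal against 2.30, 1.81 and 2.33 in total RNA and a difference of 0.93 (limma adjusted p = 0.0544). The fractions did not overlap in either genotype.

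Without abci20 total replicate 1, 24 genes rose and 2 fell in monosomal against total RNA of abci20, and the median was 0.61, beside 14.4% and 13.1% of all probe sets. Of the 19 genes called with all arrays, 17 were called without it, and AT4G34670 (0.64, limma adjusted p = 0.0509) and AT5G02960 (0.49, limma adjusted p = 0.0886) lost the call. AT3G04920 then differed by 1.79, PFL by 1.07, AT5G58420 by 0.95, AT3G57490 by 1.15 and AT4G30800 by -1.03. Left out in turn, abci20 monosomal replicates 1, 2 and 3 gave 10, 9 and 17 calls and total replicates 2 and 3 gave 17 and 8, while each array left out in Col-0 gave 3 to 5. The share of all probe sets called over these fits ran from 7.89% to 27.5% in abci20 and from 2.76% to 5.48% in Col-0. With the 6 compared arrays alone the count was 0 in abci20 and 1 in Col-0, beside 1.88% and 2.29% of all probe sets. With arrays centred on their medians it was 34 and 10, beside 21.8% and 6.61%, as the median of all probe sets moved to 0.35 and 0.20.

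**Figure D5:**
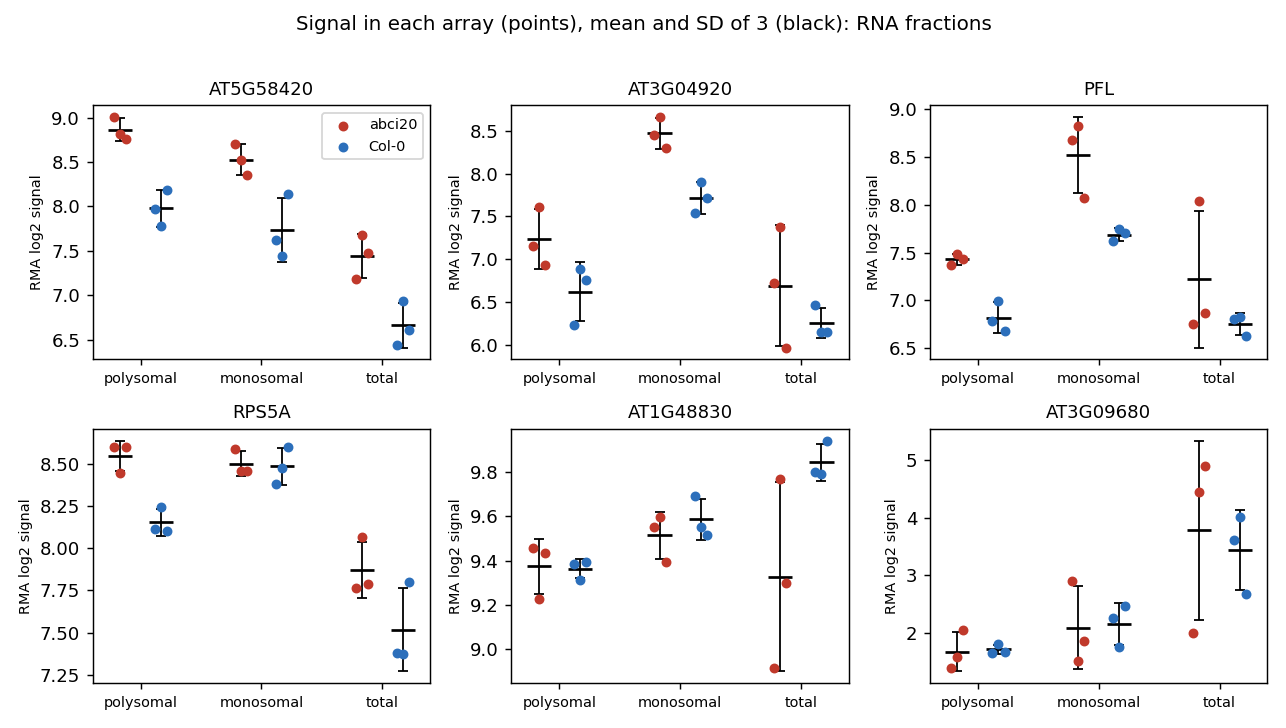
RMA log2 signal (y axis) in each array for 6 small subunit genes by RNA fraction (x axis) and genotype, with the mean and SD of 3 arrays in black. AT3G04920 and PFL are highest in monosomal RNA, AT5G58420 and RPS5A are lowest in total RNA, and AT3G09680 is highest in total RNA in both genotypes.

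Polysomal RNA was also set directly against monosomal RNA. Of the 55 genes, 0 were higher and 3 lower in abci20, where 7.31% and 3.45% of all probe sets were. In Col-0 0 were higher and 1 lower, where 8.2% and 4.25% were, and with the replicate block 2 were lower, beside 4.52%. Among brighter probe sets, 5.88% of the 51 small subunit genes and 4.94% of all were lower in abci20, and 1.96% and 4.25% were in Col-0, so the counts of lower genes were near the background. Of the 51, 0 were higher, where 14.3% of all brighter probe sets were in abci20 and 16% in Col-0. The median polysomal minus monosomal difference was -0.18 in abci20 and -0.10 in Col-0, against -0.11 and -0.13 over all probe sets and 0.19 and 0.23 over the brighter ones. Polysomal arrays lay below monosomal arrays for 17 genes in abci20 and 10 in Col-0, where 19.5% and 20% of all probe sets were so separated, and above them for 4 and 3, where 17.7% and 19.2% were.

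AT3G04920 fell by 1.23 in abci20 (limma adjusted p = 0.0126), with 7.16, 7.62 and 6.94 in polysomal against 8.45, 8.66 and 8.30 in monosomal RNA. In Col-0 it fell by 1.09 (limma adjusted p = 0.0232), with 6.23, 6.88 and 6.76 against 7.54, 7.90 and 7.71. The fractions were apart by more than the spread of either. PFL fell by 1.10 in abci20 (limma adjusted p = 0.0176), with 7.37, 7.48 and 7.43 in polysomal against 8.67, 8.82 and 8.07 in monosomal RNA. In Col-0 PFL had 6.79, 6.99 and 6.68 against 7.62, 7.74 and 7.70, a difference of -0.87 (limma adjusted p = 0.0502). RPS10B fell by 0.81 in abci20 (limma adjusted p = 0.0161), and in Col-0 its difference was -0.10. Leaving out 1 array gave between 0 and 4 calls in abci20, with 0 without polysomal replicate 3 and 1 without polysomal replicate 1 or monosomal replicate 2, and 0 in Col-0 without monosomal replicate 3 or polysomal replicate 1 or 3. AT3G04920 lost its Col-0 call in 4 of 6 fits (limma adjusted p up to 0.107). Among them was the fit without monosomal replicate 2, where 1 other gene was called. In abci20 AT3G04920 and RPS10B lost the call in 2 of 6 fits each and PFL in 4. The share of all probe sets called over these fits ran from 5.3% to 7.99% in abci20 and from 6.22% to 12% in Col-0.

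Whether a fraction contrast differed between the genotypes was tested directly. For polysomal minus total, polysomal minus monosomal and monosomal minus total RNA, 0 of the 55 genes passed in limma, as did 0 of all 27827 probe sets (0% called). At an unadjusted p under 0.05, 0 were higher and 1 lower for polysomal minus total RNA, where 2.12% and 2.42% of all probe sets were. The counts were 0 and 1 for polysomal minus monosomal RNA, beside 1.51% and 1.17%, and 3 and 1 for monosomal minus total RNA, beside 3.71% and 4.45%. The median genotype difference over the 55 genes was 0.04, -0.08 and 0.07 in the same order. AT4G30800 had the widest one, -1.90 for monosomal minus total RNA (limma adjusted p = 0.284) and -1.27 for polysomal minus total RNA (limma adjusted p = 0.999). RPS10B had -0.70 for polysomal minus monosomal RNA. Without abci20 total replicate 1, 1 gene passed for monosomal minus total RNA, namely AT4G30800 (-1.96, limma adjusted p = 0.0427), beside 0.747% of all probe sets.

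A few probe sets were too dim to carry much of the comparison. AT5G59240 stayed at percentiles 9.82 to 37.0 and AT3G45030 at 3.27 to 51.2 in all 18 arrays. For AT5G59240 the abci20 minus Col-0 difference was 0.00 in total, 0.05 in polysomal and -0.16 in monosomal RNA. AT3G09680, at percentiles 5.55 to 68.9, had the widest standard error of the 55 genes, 0.557.

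Other genes of the ribosome and its making give the setting. The 38 other small subunit genes measured had median abci20 minus Col-0 differences of 0.22 in total, 0.19 in polysomal and 0.32 in monosomal RNA, with 0 called in each. The 61 large subunit genes had medians of 0.29, 0.42 and 0.66, with 3, 0 and 4 higher and 0 lower. Among 18 genes of small subunit assembly the medians were 0.16, 0.40 and 0.60, with 2, 0 and 2 higher and 0 lower. Of all probe sets 1.11%, 0.234% and 1.09% were higher and 2.24%, 0.208% and 0.744% lower in the same order. FIB2, a fibrillarin of the nucleolus that methylates ribosomal RNA, rose in abci20 by 1.52 in total (limma adjusted p = 0.0153) and 1.74 in monosomal RNA (limma adjusted p = 0.0113). NOP56, a partner of fibrillarin in these particles, rose by 0.71 and 0.77 in the same fractions. In total RNA without abci20 total replicate 1, FIB2 rose by 1.46 (limma adjusted p = 0.0192) and NOP56 by 0.67 (limma adjusted p = 0.0433). The 7 genes of TOR signalling and S6 kinase had medians of -0.43, -0.32 and -0.46, with 0 called.

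Between fractions, named genes outside the small subunit list included TOR, ATARCA and AT1G23410. TOR, the kinase gene, was higher in polysomal than in monosomal RNA by 1.91 in abci20 (limma adjusted p = 3.39e-05) and 1.90 in Col-0 (limma adjusted p = 3.56e-05). In that contrast the medians of the 61 large subunit genes were -0.26 in abci20 and -0.07 in Col-0, beside -0.18 and -0.10 for the 55 small subunit genes. ATARCA, a RACK1 scaffold protein gene of the small subunit, rose in polysomal against total RNA by 1.16 in abci20 and 1.03 in Col-0 (limma adjusted p = 0.0017 and 0.00915), and by 1.16 in abci20 without total replicate 1. Of the 38 other small subunit genes, 8 rose and 2 fell in this contrast in abci20 (21.1% and 5.26%). In Col-0 5 rose and 2 fell (13.2% and 5.26%). Among all probe sets 11.9% rose and 10.2% fell in abci20, and 4.06% and 3.07% did in Col-0. Among the brighter ones 22.8% and 7.93% did in abci20, and 7.81% and 3.31% in Col-0. AT1G23410 fell by 2.77 in abci20 and 2.83 in Col-0 (limma adjusted p = 0.00095 and 0.00296), and by 2.98 in abci20 without that array. Its polysomal signals were 1.54, 1.34 and 1.17 in abci20 against 3.69, 4.29 and 4.37 in total RNA, so it was dim on polysomes.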

How the data were processed

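Per the submitters' processing notes the arrays were summarized by the authors with RMA, its version not stated, and the deposited file holds 1 log2 signal per probe set and array. Whether RMA was run on the 18 arrays together is not stated. Per the labels' protocols, cRNA was made with a kit that starts at the 3-prime end. The genome build behind the probe sets is not given, so no coordinates or sequences are printed. Samples were grouped by genotype and RNA fraction. Symbols came from a RefSeq gene table matched by locus.

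All probe sets were fitted in limma 3.58.1 (R 4.3.3) by lmFit and eBayes, a coefficient for each group leaving 12 residual degrees of freedom. Tests were two-sided, with Benjamini-Hochberg adjustment across the 27827 probe sets and a threshold of 0.05. The median standard error of a difference was 0.291 log2, so 3 arrays a group limit the precision. Brighter probe sets had a highest group mean over 3.93. The procedure was tested on data simulated with independent noise for abci20 against Col-0 in polysomal RNA. It recovered 23% of the changes of 1 log2 and 88% of those of 2 log2, with 8 false calls among 119. A change of 1 log2 or less can thus often stay uncalled.

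There were 12 comparisons: abci20 against Col-0 in each fraction, 3 fraction contrasts per genotype, and how each contrast differed between genotypes. Replicate numbers were taken as the blocks of the randomized layout that the labels describe. Residuals of arrays with the same number correlated at -0.166 to 0.245, over 0.1 in 7 of 27 array pairs, and the fit with the replicate block was an alternative. Other alternatives were the compared groups alone, quantile normalization, arrays centred on their medians, brighter probe sets only, a variance trend with robust estimation (statmod 1.5.0), array weights, and each compared array left out.

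The 55 genes follow from a rule that uses no measured value, but this rule and the other lists were proposed with earlier results of these data known. Eligible for naming were all genes past the threshold (at most 12 per direction and comparison) and the 4 highest and 4 lowest in each genotype comparison. So were the 4 highest and 4 lowest in each Col-0 fraction contrast, the 3 smallest p of each genotype difference, and genes of families with described mutants. The text gives the values that carry a comparison, so some eligible genes, such as AT1G34030, AT5G18380 and AT5G62300, are not given singly. RPS15 and EMB1080 were given outside this rule. Of the other lists, genes past the threshold were eligible, at most 4 per list and comparison. The values of 1 gene are not reported here, and it stays in the counts and medians. Plots used matplotlib 3.10.9 (Python 3.11.15).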

Additional observations from a re-analysis of the deposited data

How the results depend on the processing

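The median of the 55 genes kept its sign in the 9 genotype and fraction comparisons under each alternative and each array left out, while the counts of calls moved widely; the cause was not tested, except that fitting only the compared groups leaves 4 residual degrees of freedom. With the compared groups alone the counts were 0, 6 and 0 in total, polysomal and monosomal RNA of abci20 against Col-0, 2 in polysomal against total RNA of abci20, 0 and 1 in monosomal against total RNA of abci20 and Col-0, and 2 in polysomal against monosomal RNA of Col-0. These fits called 0%, 1.52%, 0.0898%, 5.71%, 1.88%, 2.29% and 13.1% of all probe sets in the same order. The replicate block gave 3 calls in monosomal RNA between genotypes, 2 in polysomal against monosomal and 7 in monosomal against total RNA of Col-0, moved no other count by over 1.5 times, and ended the call of AT3G04840 in polysomal against total RNA of abci20. Beside these counts 2.04%, 12.9% and 6.95% of all probe sets were called. Quantile normalization gave 2 and 1 calls (medians 0.19 and 0.20) in polysomal against total RNA of abci20 and Col-0, 9 in monosomal against total RNA of abci20 and 2 in polysomal against monosomal RNA of Col-0. The shares of all probe sets called were 9.25%, 1.86%, 12.9% and 7.44% in the same order. Centring each array gave 0 calls in total RNA between genotypes, 29 and 12 (medians 0.71 and 0.61) in polysomal against total RNA, and 34 and 10 in monosomal against total RNA of abci20 and Col-0 (median 0.87 in abci20). Of all probe sets 3.92%, 30.9%, 11.5%, 21.8% and 6.61% were then called in the same order.

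With only the brighter probe sets the counts were 8, 1 and 10 between genotypes in total, polysomal and monosomal RNA, 9 in polysomal and 13 in monosomal against total RNA of Col-0, and 5 and 3 in polysomal against monosomal RNA of abci20 and Col-0. Of all brighter probe sets 12.2%, 1.9%, 7.81%, 18.2%, 16.4%, 26% and 27.2% were called in the same order. The variance trend gave 11, 1 and 11 between genotypes, 12 and 13 in the same Col-0 contrasts, and 5 and 3. Beside these, 5.46%, 1.03%, 3.49%, 8.91%, 8.42%, 12.4% and 14.1% of all probe sets were called. Array weights gave 28 in polysomal RNA between genotypes, 31 and 13 in polysomal against total RNA of abci20 and Col-0, 8 and 4 in polysomal against monosomal RNA, and 31 in monosomal against total RNA of abci20. With these weights 9.55%, 40%, 17.6%, 25.3%, 19.8% and 22.9% of all probe sets were called in the same order.

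With 1 array left out, the counts ran from 0 to 6 in total and 0 to 4 in monosomal RNA between genotypes, 3 to 14 and 1 to 5 in polysomal against total RNA of abci20 and Col-0, 0 to 4 and 0 to 1 in polysomal against monosomal RNA, 8 to 26 in monosomal against total RNA of abci20, and 0 to 1 for the genotype difference of the last contrast. In the same order, the share of all probe sets called ran from 1.28% to 9.49% and 0.359% to 1.73% between genotypes. It ran from 11.1% to 32.9%, 1.53% to 6.54%, 5.3% to 7.99% and 6.22% to 12% in the polysomal contrasts. It ran from 7.89% to 27.5% and from 0% to 0.747% in those named last.

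Values of named genes that changed sign passed the threshold neither in the reported fit nor under the setting that turned them. In total RNA between genotypes, quantile normalization gave 0.011 for AT5G27700, 0.014 for AT3G47370 and 0.058 for EMB3010, and array weights 0.11 for EMB3010. In polysomal RNA between genotypes, centring gave -0.021 for AT1G48830 and array weights 0.059 for AT4G30800. In abci20, RPS6 was 0.24 when centred and 0.090 with weights in polysomal against total RNA. Quantile normalization gave -0.071 for AT5G09510 and 0.021 for AT3G45030 in polysomal against monosomal RNA of abci20, and -0.18 for AT3G53870 and -0.042 for AT2G41840 in monosomal against total RNA of abci20. In Col-0 the last contrast was -0.042 for AT2G41840 after quantile normalization and 0.13 for AT3G53870 when centred.

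With 1 array left out, differences between genotypes ran from -0.33 to 0.063 for AT5G09510, -0.0059 to 0.47 for RPSAb, -0.37 to 0.32 for EMB3010 and -0.30 to 0.030 for AT3G47370 in total RNA. They ran from -0.23 to 0.10 for AT3G09680, -0.23 to 0.18 for AT5G15520, -0.033 to 0.083 for AT1G48830 and -0.26 to 0.13 for AT4G30800 in polysomal RNA, and from -0.035 to 0.074 for RPS5A in monosomal RNA. In abci20 they ran from -0.20 to 0.025 for RPS6 and -0.16 to 0.27 for AT1G48830 in polysomal against total RNA, from -0.25 to 0.047 for AT5G07090 and -0.040 to 0.24 for AT5G09510 in polysomal against monosomal RNA, and from -0.11 to 0.15 for AT3G53870 and -0.019 to 0.41 for AT1G48830 in monosomal against total RNA. In Col-0 the last contrast ran from -0.14 to 0.14 for AT3G53870 and -0.12 to 0.12 for AT2G41840.

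Dim probe sets, 4 of the 55 outside the brighter group, limit what can be said of AT4G30800, and 3 arrays a group limit all calls.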
